A study of Mus musculus and Homo sapiens with 27 samples.

Results

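The subject here is RNA of the human line HEK293T that came off streptavidin beads although its cells were titled as not labelled, set against RNA of labelled cells that never met the beads. It was taken from the HEK293T count table as the 3 libraries titled NonLabel_Enrich and the 3 titled Label_Input, which makes 6 of the 27 libraries of the series. HEK293T is a transformed human embryonic kidney line that grows readily in culture, and the cells stably expressed an enzyme named LAP in the labels and located at the ERM, which is taken to mean the endoplasmic reticulum membrane. For labelling, the protocol gives furimazine, the substrate of a luciferase, at 50 µM together with 10 mM PA, an abbreviation the labels do not spell out, over 15 to 60 min. Biotin azide was then clicked onto extracted RNA, about 1 µg was set aside as input, and what remained went over the beads. The labels do not say which of PA, furimazine or both were withheld from the NonLabel_Enrich cells, nor what 3G in the titles stands for, nor whether replicates were separate cultures, and the spread behind each p-value may therefore be technical. The third HEK293T group, Label_Enrich (3 libraries of captured RNA from labelled cells), is used for comparison.

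Proximity labelling of RNA works by having an enzyme make short-lived reactive molecules that mark RNA near it with a handle, after which biotin is attached to the handle and pulled down on streptavidin. RNA can also reach the beads without a handle, by sticking to the beads or the tube or by side reactions of the click step, and the unlabelled capture shows what such background is made of. Input shows the RNA population from which background is drawn, including the very abundant ribosomal and mitochondrial RNAs that total RNA libraries hold. Here the reference is input of labelled cells, because no input library of unlabelled cells is among those analysed, so an effect of capture and an effect of labelling on the cells' RNA cannot be told apart in this comparison.

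The table counts reads for 57992 human Ensembl genes, called features below. It does not pair the IDs with gene names, and 0 of the IDs were found in the reference tables used here, which cover mouse. No gene name, role, class or sequence is therefore given to any feature, the cell line's marker genes could not be looked up, and only the 2 features with the largest rise and the 2 with the largest fall are given by ID. Library totals were 710051, 465517 and 762842 counts for the NonLabel_Enrich replicates 1, 2 and 3, and 675865, 742649 and 442059 counts for those of Label_Input. Of all features, 25835 had a count in at least 1 of the 9 HEK293T libraries, and 9177 passed the low-count filter and were tested. The tested features held between 96.7% and 97.0% of the counts of each of the 6 libraries.

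The unlabelled capture held much less of the most abundant RNAs than input did. The same 3 features led both groups. The most abundant one took 6.82%, 7.41% and 7.44% of the counts in the NonLabel_Enrich replicates 1, 2 and 3. In Label_Input it took 13.5%, 12.7% and 12.3%. The groups did not overlap, and the share in the highest captured library was well under that in the lowest input library. The second feature took 4.42%, 6.0% and 4.68% of the captured counts and 9.95%, 9.35% and 9.25% of the input counts. For the third they were 1.77%, 1.59% and 2.27% against 4.54%, 4.36% and 4.43%. For each of the 3 features, then, every captured library lay below every input library, although NonLabel_Enrich replicate 2 stood above its fellow replicates for the second feature and replicate 3 stood above them for the third.

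Added together, the 3 features made up 14.1% ± 1.02 of the counts in NonLabel_Enrich and 26.8% ± 1.10 in Label_Input (SD, n = 3 each). The difference of 12.6 percentage points had a 2-sided exact permutation p of 0.1 (0.12 after Benjamini-Hochberg adjustment over 12 measures of library make-up), and 0.1 is the smallest p that 3 libraries against 3 can give. Of all counts, the next 7 features by abundance together took 2.93% ± 0.206 of the capture and 2.94% ± 0.0757 of input, and the groups overlapped (exact permutation p = 1). Of the counts left when the leading 3 were set aside, the same 7 took 3.30%, 3.71% and 3.21% in the NonLabel_Enrich replicates and 4.17%, 4.01% and 3.85% in those of Label_Input. On that denominator they too were lower in every captured library (exact permutation p = 0.1, the smallest possible). The 10 most abundant features together took 17.1% ± 1.14 of the capture and 29.7% ± 1.17 of input. In Label_Enrich the 3 features together took 10.2% ± 0.264, below the unlabelled capture, again without overlap (exact permutation p = 0.1, the smallest possible). The third feature was the exception among them, at 2.00% ± 0.0720 in Label_Enrich, within the range of the unlabelled capture (exact permutation p = 0.6).

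**Figure D1:**
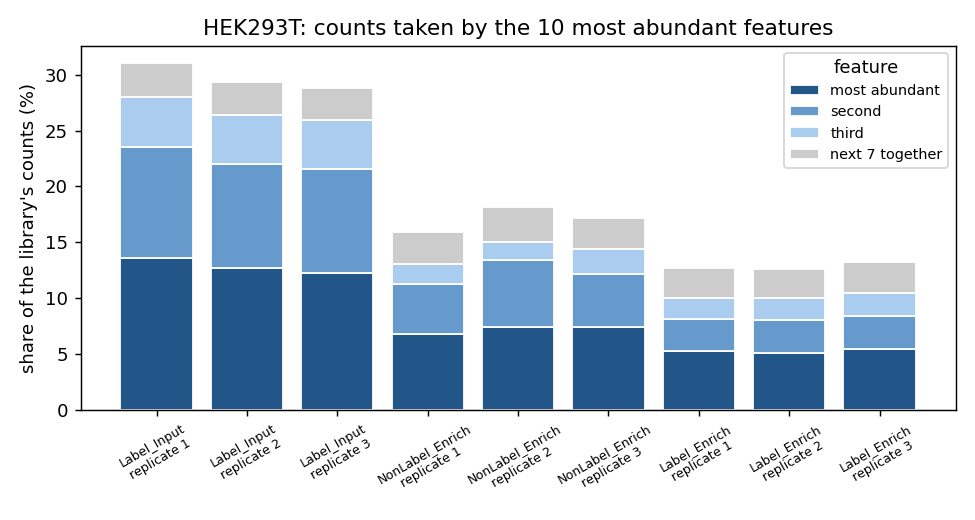
Share of each HEK293T library's counts (vertical axis, percent) taken by each of the 3 most abundant features and by the next 7 together, with 1 bar for each of the 9 libraries. The first 3 features make up between 13.02% and 15.0% in NonLabel_Enrich and between 26.0% and 28.0% in Label_Input, while the grey segment for the next 7 is of like height in all libraries.

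With less taken by 3 features, the captured counts were less concentrated in the most abundant ones, but were not spread over clearly more detected features. It took the 838, 761 and 797 most abundant features to reach 50% of the counts in the NonLabel_Enrich replicates 1, 2 and 3, and 344, 367 and 393 in those of Label_Input. When the leading 3 were set aside, the numbers were much closer, 1213, 1189 and 1214 against 1164, 1125 and 1143, still without overlap. The number of features expected at an equal depth of 442059 counts, the smallest total, was 15473 ± 115 in NonLabel_Enrich and 15380 ± 123 in Label_Input (SD, n = 3), and these overlapped (exact permutation p = 0.5). With the leading 3 set aside and all libraries brought to the same remaining depth, the captured libraries held fewer features, 15022 ± 73.3 against 15414 ± 172, without overlap. At the other extreme, 123 features had a count in all 3 NonLabel_Enrich libraries and none in Label_Input, and 116 had the reverse. All of these were rare, with at most 14 counts summed over the captured libraries or 23 over the input libraries, so at this depth no abundant RNA was found in 1 group alone.

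Feature by feature, few differences between the unlabelled capture and input were called at this depth. In the edgeR quasi-likelihood test, fitted to all 9 HEK293T libraries with trimmed mean of M values (TMM) scaling, 642 of 9177 features were called at a Benjamini-Hochberg adjusted p under 0.05, which is 7.0% of those tested. Of these, 272 (2.96%) were higher and 370 (4.03%) lower in NonLabel_Enrich. An unadjusted edgeR p under 0.05 was reached by 1832 features. Groups did not overlap in 2161 features (23.5%), among them 613 of the called ones. For libraries that do not differ, the probability of no overlap is 0.1 with 3 against 3. The log2 fold changes of all tested features had a median of -0.01 and quartiles of -0.28 and 0.24, set against a median SE of 0.258, so for most features a difference of this size was not separable from replicate error. TMM sets levels relative to the bulk of features and gives no amount of RNA on the beads, and in RNA of a whole culture fewer cells holding an RNA and less of it per cell cannot be told apart.

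With TMM scaling the changes were lopsided in size. At least 2-fold differences were called for 127 lower features and 23 higher ones, and at least 4-fold differences for 20 lower features and 0 higher (1 at an unadjusted edgeR p under 0.05, and 0 with DESeq2). The 370 lower features had a median log2 fold change of -0.84 and reached -5.75, whereas the 272 higher ones had a median of 0.58 and reached 1.83. Groups did not overlap in 18 of the 20 features with falls of at least 4-fold, and the other 2 each had 1 input library far above its fellow replicates. DESeq2 called fewer in both directions, 164 higher and 211 lower, of which 9 and 65 differed at least 2-fold. Without Label_Input replicate 2 the edgeR counts were 144 higher and 251 lower. The direction of the balance changed with the processing. Without a low-count filter, 322 features were called higher and 271 lower, so that 54.3% of calls were higher, against 42.4% in the filtered table. With library totals in place of TMM factors all log2 fold changes shifted by a median of 0.30, and 1849 features were called higher and 185 lower, so that 90.9% of calls were higher. At least 2-fold differences then numbered 219 higher and 56 lower.

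**Figure D2:**
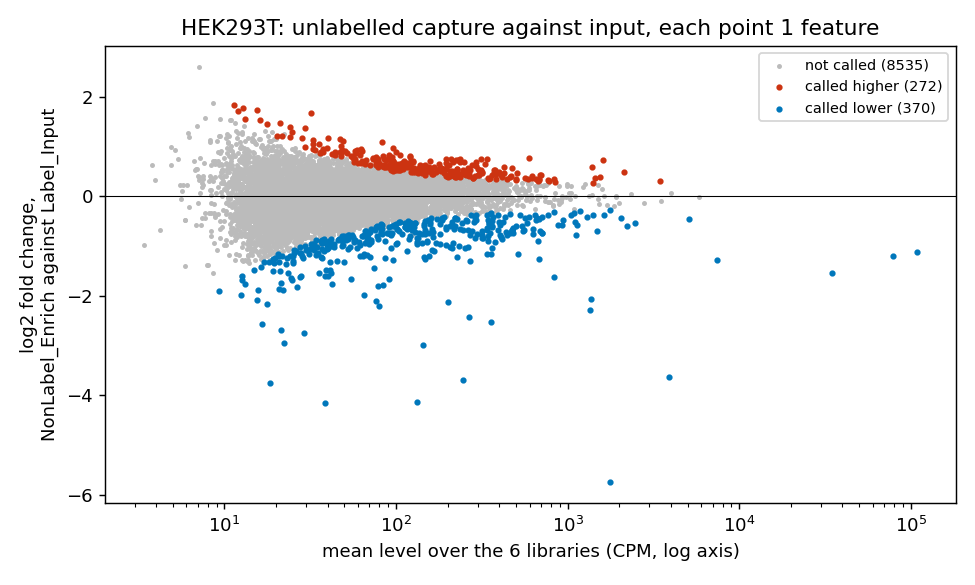
Log2 fold change of NonLabel_Enrich against Label_Input (vertical axis) by mean level over the 6 libraries in CPM (counts relative to the TMM-scaled library total, horizontal log axis), with 1 point for each of 9177 features. The 370 features called lower reach -5.75 and include the 3 most abundant at the far right, while the 272 called higher reach 1.83.

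In terms of counts, the called features made up a larger part of input than of the capture. The 370 lower features took 38.2% ± 0.726 of input counts and 21.9% ± 1.184 of captured counts (SD, n = 3), values that describe the features the test chose. Most of that was again the leading 3: the other 367 took 11.4% ± 0.567 of input and 7.75% ± 0.314 of the capture. The 272 higher features took 4.51% ± 0.0132 of input and 7.77% ± 0.0814 of the capture. The 8535 features that were tested and not called held 54.2% ± 0.705 of input and 67.1% ± 1.04 of the capture. Features without a call thus held most of the captured counts.

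The 3 leading features were called lower on the TMM scale as well. The most abundant stood at 63670, 71159 and 70529 CPM in the NonLabel_Enrich replicates and at 158997, 146539 and 140714 CPM in those of Label_Input. Its log2 fold change was -1.12 ± 0.05 (SE, edgeR adjusted p = 1.88e-28). For the second feature the log2 fold change was -1.21 ± 0.06 (edgeR adjusted p = 8.86e-26), and for the third it was -1.54 ± 0.07 (edgeR adjusted p = 2.46e-29). In the labelled capture the first 2 were lower still: log2 differences of Label_Enrich from NonLabel_Enrich were -0.37 ± 0.05 and -0.73 ± 0.06 (edgeR adjusted p = 2.32e-08 and 1.22e-15). The third differed by 0.17 ± 0.07, which was not called (edgeR adjusted p = 0.0655).

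Among features with a mean of at least 50 CPM and groups that did not overlap, ENSG00000265735 had the largest fall. It stood at 60.5, 61.9 and 69.6 CPM in the NonLabel_Enrich replicates 1, 2 and 3, from 46, 30 and 56 reads. In Label_Input it stood at 3619, 2728 and 4074 CPM, from 2084, 1750 and 1572 reads. Every input library thus lay far above every captured one, and the log2 fold change came to -5.75 ± 0.39 (SE; edgeR adjusted p = 3.90e-20), or a 53.8-fold lower level in the capture. In Label_Enrich the libraries disagreed: replicate 1 stood at 1375 CPM, while replicates 2 and 3 stood at 130 and 60.8 CPM. The direct test gave 3.09 ± 0.40 for Label_Enrich against NonLabel_Enrich (edgeR adjusted p = 9.80e-10), and replicate 3 of Label_Enrich lay within the range of the unlabelled libraries.

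Under the same conditions, ENSG00000120738 had the second largest fall. Its levels were 14.5, 18.6 and 9.94 CPM in the NonLabel_Enrich replicates, from 11, 9 and 8 reads, so counting error on the captured side was large. In Label_Input it stood at 208, 210 and 332 CPM. The groups were wide apart, and the log2 fold change came to -4.14 ± 0.23 (SE; edgeR adjusted p = 5.70e-25). In Label_Enrich it stood in between, at 98.9, 123 and 137 CPM, above every unlabelled capture library and below every input library. Label_Enrich differed from NonLabel_Enrich by 3.08 ± 0.25 on the log2 scale (edgeR adjusted p = 2.33e-17). Its level thus differed between the 2 captures, whose cells also differed in labelling, and the cause was not tested. Both features that fell were picked in part for low NonLabel_Enrich values, which favours higher levels in Label_Enrich.

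The largest rises under the same conditions, a mean of at least 50 CPM and groups that did not overlap, were small by comparison. ENSG00000123384 stood at 116, 126 and 98.1 CPM in the NonLabel_Enrich replicates and at 50.4, 49.9 and 59.6 CPM in those of Label_Input. The lowest captured library lay well above the highest input library, and the log2 fold change was 1.09 ± 0.19 (SE, edgeR adjusted p = 1.40e-05). In Label_Enrich it was higher again, at 232, 201 and 194 CPM, which is 0.92 ± 0.14 above NonLabel_Enrich on the log2 scale (edgeR adjusted p = 9.11e-08). ENSG00000064651 stood at 130, 134 and 111 CPM in NonLabel_Enrich. Its Label_Input values were 45.1, 56.1 and 98.5 CPM, so that replicate 3 came near the captured libraries. The log2 fold change was 0.97 ± 0.19 (SE, edgeR adjusted p = 9.59e-05), and over the leave-one-out fits it ran from 0.77 to 1.29. In Label_Enrich this feature stood at 264, 292 and 252 CPM, 1.12 ± 0.14 above NonLabel_Enrich on the log2 scale (edgeR adjusted p = 2.30e-10). Both features thus stood in the order input, unlabelled capture, labelled capture, with no overlap between neighbouring groups. The step from input to unlabelled capture was fixed by how they were chosen. The step to the labelled capture is another contrast of the same fit and shares the NonLabel_Enrich libraries. Both features were picked in part for high NonLabel_Enrich values, which favours lower levels in Label_Enrich relative to them.

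**Figure D3:**
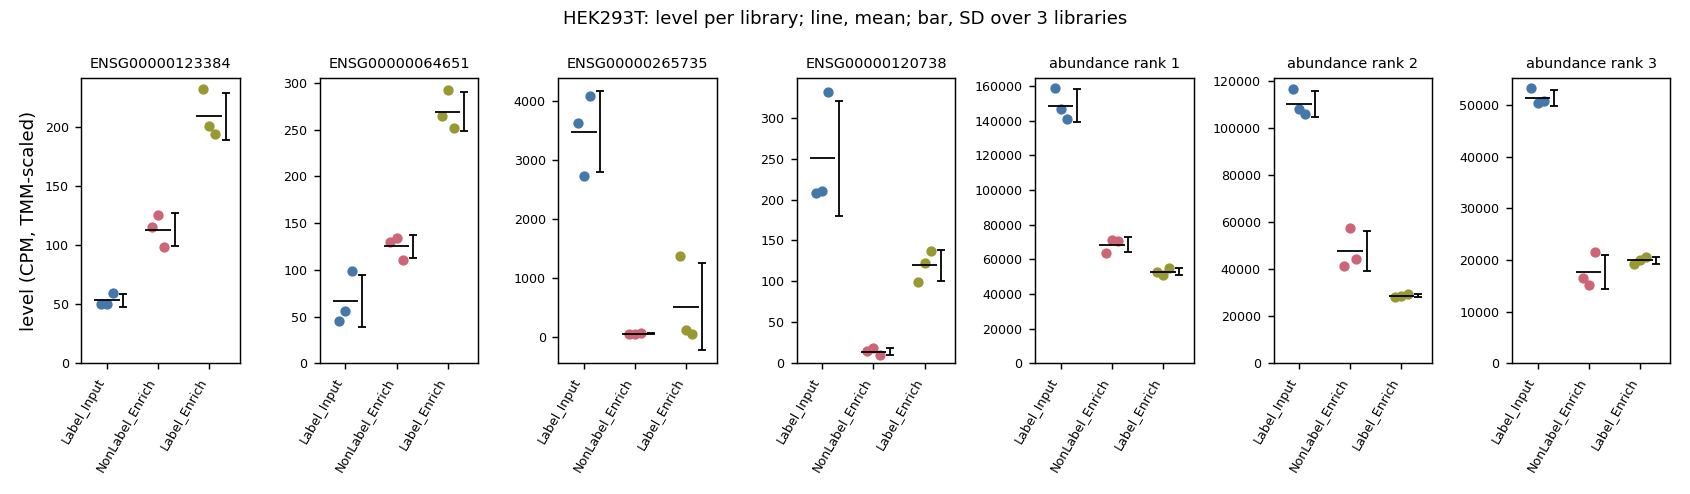
Level in CPM (vertical axes, TMM-scaled, separate scale per panel) of the 4 features given by ID and of the 3 most abundant features, with 1 point per library, a line at the mean and a bar for the SD over 3 libraries. NonLabel_Enrich lies between Label_Input and Label_Enrich for the 2 features that rose and below Label_Input for the other 5.

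More features were called at higher mean levels, where the SE was smaller, and whether depth alone accounts for this was not tested. In the lowest quintile of tested features by mean level (3.40 to 21.9 CPM), 10 were called higher and 27 lower, and every called feature differed by at least 1.17 on the log2 scale. In the highest quintile (above 104 CPM) 171 were higher and 190 lower, and calls reached down to a log2 difference of 0.27. Of these, 0 of the higher and 32 of the lower differed at least 2-fold, and at an unadjusted edgeR p under 0.05 or with DESeq2 the count of such higher features was also 0. The share called was 2.02% in the lowest quintile and 19.7% in the highest, and the median SE fell from 0.429 to 0.140. Fold changes were therefore measured most precisely in the highest quintile, and in it all called rises stayed under 2-fold on the TMM scale. The median log2 fold change went from -0.04 in the lowest quintile to 0.06 in the highest, both small beside the SE of a single feature. With a stricter low-count filter the lowest quintile stood at 0.20 and the highest at 0.05, so neither the sign in the lowest quintile nor the order of the quintiles held. In the lowest quintile, no difference under 2-fold was called at this depth, while in the next quintile calls reached down to a log2 difference of 0.88.

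**Figure D4:**
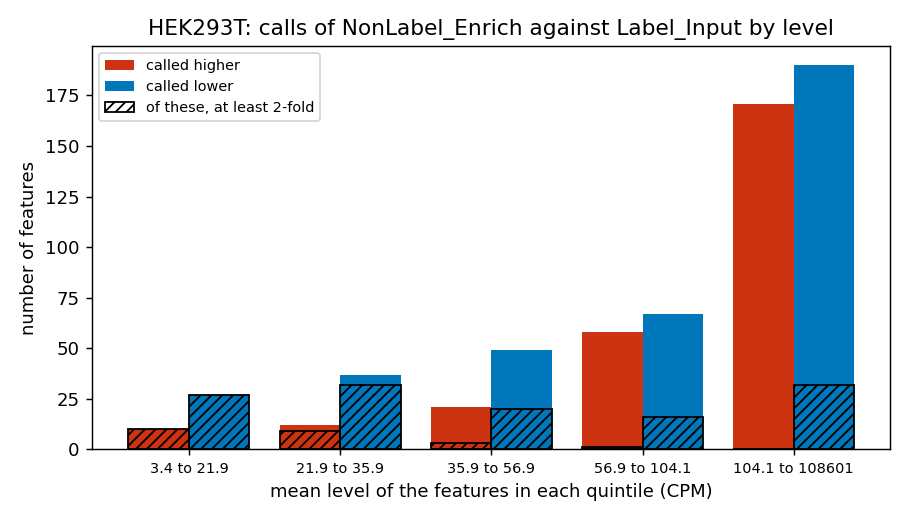
Number of features called higher or lower in NonLabel_Enrich than in Label_Input (vertical axis) in quintiles of the tested features by mean level in CPM (horizontal axis), with hatching for those that differ at least 2-fold. Calls rise from 10 higher and 27 lower in the lowest quintile to 171 and 190 in the highest, where 0 higher and 32 lower features pass 2-fold, all on the TMM scale.

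Set beside the labelled capture, the unlabelled one departed less from input. Both comparisons use the same Label_Input libraries. Label_Enrich against Label_Input gave 2664 called features (29.0% of 9177), 1567 higher (17.1%) and 1097 lower (12.0%), of which 981 and 300 differed at least 2-fold. The 95th percentile of the log2 fold change was 1.48 there and 0.61 for NonLabel_Enrich against Label_Input, while the 5th percentiles were closer, at -0.90 and -0.76. The direct test of Label_Enrich against NonLabel_Enrich called 1460 features higher (15.9%) and 673 lower (7.33%), which is 23.2% in all, and 914 and 124 of them differed at least 2-fold. With upper-quartile factors that test called 1237 higher and 1327 lower, so the balance turned.

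Pairs of single libraries were also compared. Over the 1836 features of the highest quintile, the root mean square log2 difference between a NonLabel_Enrich and a Label_Input library ran from 0.433 to 0.490 over the 9 pairs. Between NonLabel_Enrich and Label_Enrich libraries it ran from 0.516 to 0.573. Label_Enrich and Label_Input libraries lay farthest apart, at 0.631 to 0.722. Pairs of NonLabel_Enrich replicates differed by 0.207 to 0.266, and pairs of Label_Input replicates by 0.259 to 0.296. By this measure, a description over pairs that share libraries, the unlabelled capture lay nearer to input than to the labelled capture. That quintile was set by levels in NonLabel_Enrich and Label_Input, without Label_Enrich. Over all 9177 features the ranges overlapped, at 0.532 to 0.652 for pairs with input and 0.645 to 0.735 for pairs with Label_Enrich. A chi-square per degree of freedom on the counts, which grows with depth, did not separate these distances: it ran from 4.99 to 8.87 for pairs with input and from 6.11 to 8.71 for pairs with Label_Enrich.

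**Figure D5:**
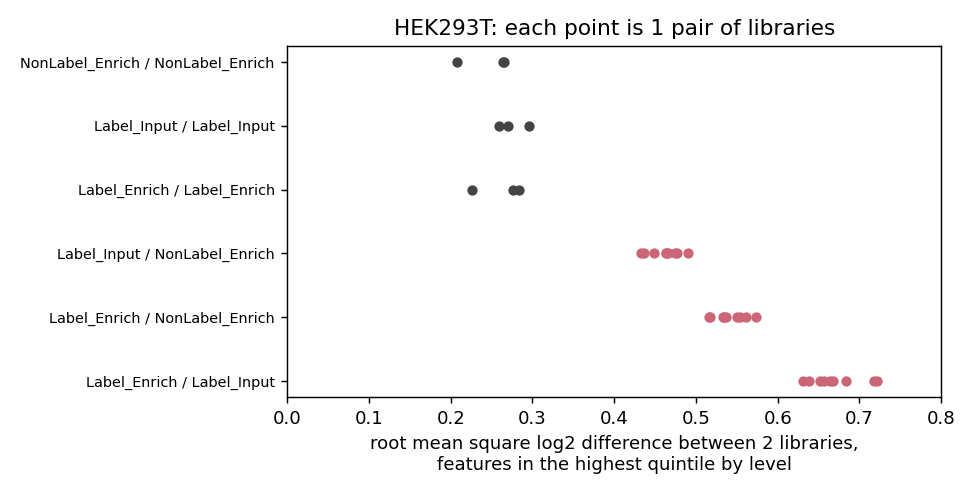
Root mean square log2 difference between 2 HEK293T libraries (horizontal axis) over the highest quintile of features by level, with 1 point per pair and 1 row per kind of pair. Replicate pairs lie between 0.207 and 0.296, input and unlabelled capture between 0.433 and 0.490, and both kinds of pair with Label_Enrich farther out.

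The features chosen by the unlabelled comparison can be read in the labelled one, with the shared input libraries in mind. The 272 higher features had a median log2 fold change of 0.58 for NonLabel_Enrich and 0.53 for Label_Enrich against Label_Input, with a wider upper quartile in the labelled capture (1.44 against 0.74). For the 370 lower features the medians were -0.84 and -0.70. Over all tested features the 2 medians were -0.01 and -0.05. For the 20 features with at least 4-fold falls, the medians were -2.63 and -2.40. The features were chosen by the first comparison and both share the input libraries, which favours like values, so nothing is read from the likeness.

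The mouse line MC38, a colon carcinoma line, had the same comparison in libraries of its own. In the deeper of its tables, with 13127181 to 16477229 counts per library in the 2 groups, NonLabel_Enrich against Label_Input gave 1727 higher (14.8%) and 1713 lower (14.7%) features of 11676 tested, 29.5% in all, and 48 and 279 of them differed at least 2-fold. The fold changes of all features were spread about as widely as in HEK293T, with quartiles of -0.28 and 0.22, while the median SE was 0.153 against 0.258. With TMM scaling, at least 2-fold falls outnumbered at least 2-fold rises in both lines, and in both the most abundant feature took less of the capture than of input (64.7% ± 1.97 against 80.7% ± 0.158 in MC38, SD, n = 3). Features were not matched between the species, and the difference between the lines was not tested.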

How the data were processed

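Whole-number read counts per Ensembl gene were used as the authors deposited them, 1 table per set. Per the submitters' processing notes, the tools were HISAT2 2.1.0, DESeq2 1.16.1, HTSeq 0.7.2 and cutadapt 1.18, with builds GRCh38 and GRCm39. Strand, the treatment of multiply matching reads and the annotation release were not given in the sources used here, so counts of features with near-identical copies or overlaps are uncertain. The number of per-sample columns left unmapped in the tables used was 0. The shallower MC38 table was not used.

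The 9 HEK293T libraries entered 1 fit with 1 coefficient per group in edgeR 4.0.16 (R 4.3.3): default low-count filter by group, TMM factors, 2-sided quasi-likelihood F test and Benjamini-Hochberg adjustment over all tested features. MC38 was fitted likewise. CPM are counts relative to the TMM-scaled library total. The SE was obtained from the F statistic, as the size of the log2 fold change over its root. Shares use all counts of a library. Equal-depth numbers are hypergeometric expectations. Pairs of NonLabel_Enrich replicates differed beyond sampling noise (chi-square per degree of freedom 1.42 to 1.78), as did those of Label_Input (1.56 to 1.84), over features with at least 5 expected counts. The fit was also run on simulated counts with the same spread for all features and balanced changes. These are simpler than the data, and no result is drawn from that run.

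The comparison, the gene lists and the naming rule were chosen with earlier results of these data known. The rule took, among called features with a mean of at least 50 CPM and groups that do not overlap, 2 that rose most and 2 that fell most, by ID. 35 gene lists written by symbol, the shares by RNA class and the test of the difference between the lines needed human gene names and were not run. Alternatives changed the scaling, filter, samples, tool and replicates (DESeq2 1.42.0).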

Additional observations from a re-analysis of the deposited data

How the results depend on the processing

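The 4 features given by ID and the 3 most abundant ones kept their direction and were called under every alternative that tested them. With library totals in place of TMM factors, 1849 HEK293T features were higher and 185 lower in NonLabel_Enrich than in Label_Input, the median log2 change of the highest quintile was 0.36, 1061 features were lower in Label_Enrich than in NonLabel_Enrich, and MC38 had 10841 higher and 89 lower. The MC38 and HEK293T balances of higher and lower features thus depended on the scaling. With upper-quartile factors 1237 were higher and 1327 lower in Label_Enrich than in NonLabel_Enrich. DESeq2, which gave no adjusted p for 2315 of 9177 features, called 164 higher and 211 lower in the HEK293T background and 360 lower in Label_Enrich than in NonLabel_Enrich; the cause was not tested. Without a low-count filter 54.3% of 593 calls were higher, against 42.4% of 642. With the strict filter the medians of the lowest and highest quintiles were 0.20 and 0.05.

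Leaving out 1 library at a time gave 144 to 295 higher and 251 to 369 lower features, lowest without Label_Input replicate 2 in both cases; 364 of the 642 calls were shared then. For Label_Enrich against NonLabel_Enrich the ranges were 1244 to 1455 higher and 482 to 741 lower, and for MC38 1435 to 1623 and 1408 to 1619. The difference in share ran from -5.88 to -5.24 percentage points for the most abundant feature, from -13.1 to -12.0 for the first 3 and from -13.2 to -12.0 for the first 10. Without the most abundant feature in numerator and denominator the last 2 were -8.56 and -8.78. Leave-one-out medians by level ran from -0.06 to -0.03 in the lowest quintile and from 0.06 to 0.07 in the highest. The replicate block gave 259 higher and 356 lower features. Deviations of same-numbered libraries of the 2 groups from their group means had correlations of -0.01, 0.01 and -0.01 over the tested features. Counting noise of rare features makes such correlations small, so whether the numbers pair the libraries was not settled. Leave-one-out of Label_Enrich the shares by abundance rank and the fits for the 2 features of widest spread were added after seeing the data. Depth limits the lowest quintile by level, where the smallest call was 1.17 on the log2 scale.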

Other observations

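Some features varied far more between replicates than most. Among the 4171 features with a mean of at least 50 CPM, the median ratio of the highest to the lowest library of a group was 1.25 in NonLabel_Enrich and 1.28 in Label_Input, and it passed 3 for 6 and 8 features. The widest in Label_Input, picked after its values were seen, stood at 76.4, 1236 and 41.5 CPM in replicates 1, 2 and 3 and at 19.7, 43.3 and 49.7 CPM in NonLabel_Enrich, so replicate 2 alone carries its high input mean. It is one of the 20 features called at least 4-fold lower (log2 -3.69, edgeR adjusted p = 2.40e-09), and without Label_Input replicate 2 the fit gave -0.71 ± 0.32 (SE, edgeR adjusted p = 0.248), which is no longer called. The widest in NonLabel_Enrich, picked in the same way, stood at 188, 18.6 and 74.5 CPM there and at 299, 184 and 1392 CPM in Label_Input. It too is among the 20 (log2 -2.54, edgeR adjusted p = 9.99e-09), and without Label_Input replicate 3 it stood at -1.24 ± 0.25 (SE, edgeR adjusted p = 4.99e-04), still called and under 4-fold. In both features the 2 groups overlapped.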
